A study of Mus musculus with 8 samples.

Results

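Creatine kinase and adenylate kinase energy transfer was described in mouse hearts from 9 genes: the 2 enzymes of creatine synthesis (Gatm and Gamt), the 2 cytosolic creatine kinases (Ckm and Ckb), the 2 mitochondrial creatine kinases (Ckmt1 and Ckmt2) and the adenylate kinases Ak1, Ak3 and Ak4. The genes were chosen by symbol, through the accession that each array probe carries, with earlier results of these data known. They were measured by 10 of the 41174 non-control probes of the array, 2 for Ckb and 1 for each other gene. All 9 genes were among the 20203 genes and unnamed probes that were bright enough to test. The tested hearts came from 4 C57BL/6J males without food for 2 days and with water available throughout, and they were compared with the hearts of 4 satiated C57BL/6J males that had no treatment. All mice were 9 weeks old, and the stated diet was standard dry pellets. Total RNA of each heart was labelled with 1 dye and hybridised to an Agilent whole mouse genome array of its own. The question put by the design is which transcripts of the heart differ after the fast.

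Heart muscle makes most of its ATP in mitochondria and uses most of it at the myofibrils and ion pumps. Creatine kinases move the high-energy phosphate between ATP and phosphocreatine, with 1 set of isoenzymes at the mitochondria and another at the sites of use, so that phosphocreatine acts both as a buffer and as a carrier. Adenylate kinases exchange phosphate between ADP, ATP and AMP (Ak3 with GTP in place of ATP), which recovers energy from ADP and sets the level of AMP. Creatine is made in 2 steps, mostly in kidney, pancreas and liver, and muscle takes it up from blood.

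In fasted hearts 5 of the 9 genes fell and none rose (nor had any an unadjusted p under 0.05 in that direction): Gatm, Gamt, Ckb, Ak1 and Ak4, by 1.77-fold to 3.07-fold. The other 4, Ckm, Ckmt1, Ckmt2 and Ak3, did not pass the test. The test was limma's moderated test across all 20203 genes and probes, with Benjamini-Hochberg adjustment and a threshold of 0.05 on the adjusted p, and it called 20.2% of them, 10.3% as lower and 9.82% as higher in fasted hearts. The median log2 change of the 9 genes was -0.82, and that over all 20203 was 0.00. The fasted and satiated values of the same 5 genes did not overlap, each time with every fasted heart lower, and of all tested genes and probes 27.6% had groups that did not overlap, 14.3% in that direction. In these RNA samples of whole hearts, fewer cells of a type and less RNA per cell cannot be told apart.

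**Figure D1:**
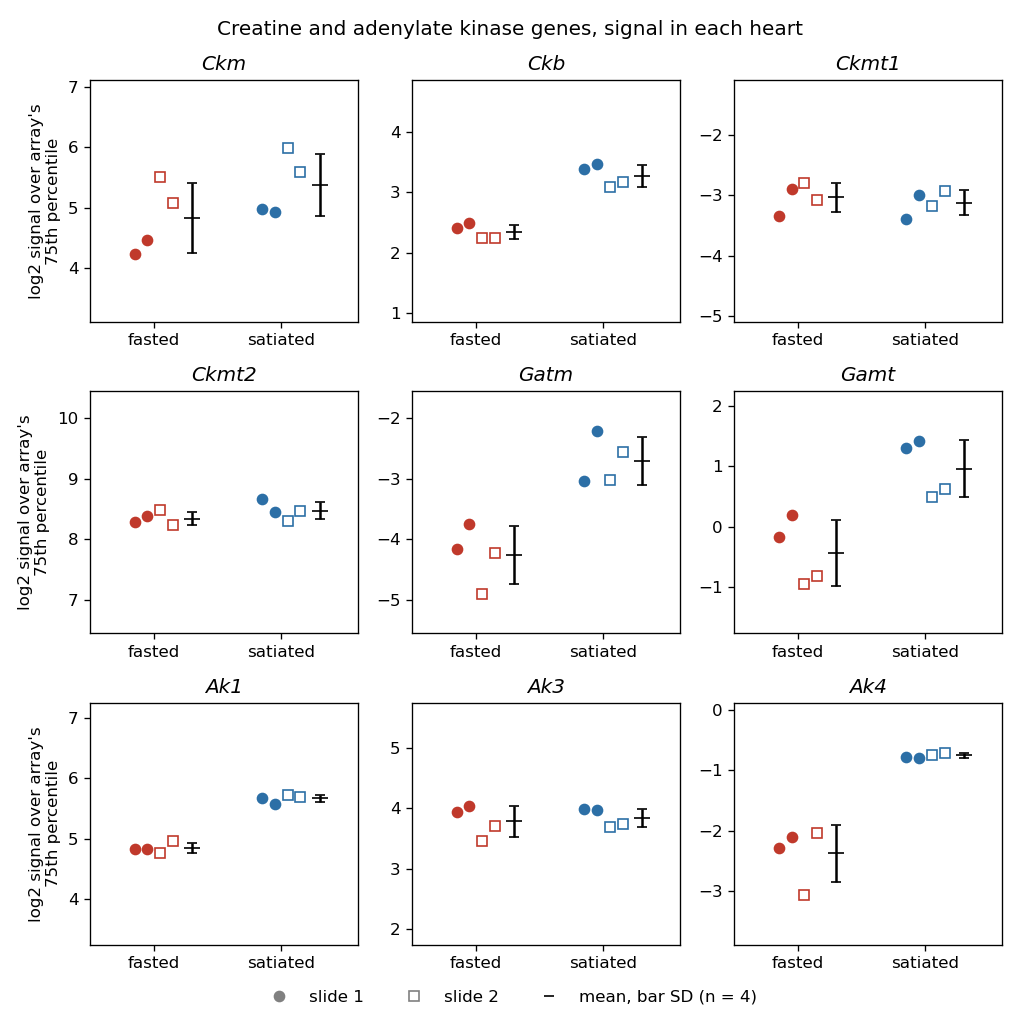
Level of each of the 9 genes in each heart, as log2 signal relative to the 75th percentile of the array, with fasted hearts left of satiated hearts and the group mean as a bar. Ckb, Ak1, Ak4, Gatm and Gamt have every fasted heart below every satiated heart, whereas the groups overlap for Ckm, Ckmt1, Ckmt2 and Ak3.

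The arrays lay on 2 slides, each with 2 fasted and 2 satiated hearts, replicates 1 and 2 on slide 1 and replicates 3 and 4 on slide 2. Slide 2 was scanned and extracted apart from slide 1, and it had a higher background: the median signal of its negative control spots was 136 to 150, against 28.5 to 30 on slide 1, and 54.4% to 55.6% of probes were well above background there, against 66.7% to 68.9% on slide 1. No spot was saturated on any array. Levels below are log2 processed signal relative to the 75th percentile of the same array, so that a value above 0 is brighter than that percentile, and each change is the fasted minus the satiated mean. Since each probe binds with its own strength, levels are compared between hearts and not between genes. Among cell type markers, 1 of 8 cardiomyocyte genes fell (Actc1) and the others, Myh6, Tnnt2 and Pln among them, did not pass the test. The summed signal of the 8 was 2000 to 2880 in fasted hearts and 2190 to 2960 in satiated hearts. Pln changed by -0.42 (limma adjusted p = 0.068), with every fasted heart below every satiated heart. It passed as lower with slide as a block (limma adjusted p = 0.0157), and of the other cardiomyocyte genes only Actc1 did. Of 5 fibroblast genes 1 rose (Dcn) and 3 fell (Col1a1, Col1a2 and Lum), with a median change of -0.98. Their summed signal, 234 to 286 in fasted and 219 to 234 in satiated hearts, is carried mostly by Dcn. Besides these, 1 of 4 smooth muscle genes fell (Acta2), and 1 of 2 tested B cell genes rose (Ms4a1). None of the 22 tested genes of fast skeletal muscle, endothelium, macrophages, adipocytes, red cells and Schwann cells or neurons passed in limma, 3 of them having an unadjusted p under 0.05. With slide as a block 3 of the 22 passed: Atp2a1 (-0.53, limma adjusted p = 0.0163), Kdr (-0.46, adjusted p = 0.0441) and Pecam1 (0.60, adjusted p = 0.00767). One heart stood apart in fast skeletal muscle genes, a tissue that is also rich in Ckm and Ak1. Tnni2 had levels of 1.97 to 2.77 in fasted hearts, against 6.14 in satiated heart 1 and 0.73 to 1.24 in the other satiated hearts. Tnnt3 had -3.18 to -2.53 in fasted hearts, against 3.50 in satiated heart 1 and -4.34 to -3.92 in the other satiated hearts, and Mylpf and Actn3 were likewise high in satiated heart 1. The summed signal of that list, 167 to 261 in fasted and 163 to 313 in satiated hearts, is carried mostly by Myh4. Without satiated replicate 1 the change of Ckm was -0.68 (limma adjusted p = 0.262) and that of Ak1 -0.82 (adjusted p = 0.00841). The number of the 9 genes that fell was still 5. That fit has no slide term, and leaving out a heart of slide 1 makes the groups unequal between slides. With slide as a block the change of Ckm without that heart was -0.53 (limma adjusted p = 0.0571). The part of the other markers in the results below was not tested.

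Both enzymes of creatine synthesis were lower in fasted hearts. Gatm, the mitochondrial amidinotransferase that joins arginine and glycine into guanidinoacetate, had levels of -4.16, -3.74, -4.90 and -4.23 in fasted hearts 1 to 4, against -3.04, -2.21, -3.02 and -2.56 in satiated hearts 1 to 4. Every fasted heart lay below every satiated one. The mean was -4.26 ± 0.48 in fasted and -2.71 ± 0.40 in satiated hearts (SD, n = 4 each), a log2 change of -1.55 ± 0.28 (SE) or 2.93-fold lower in fasted hearts, with a 95% interval from -2.20 to -0.91 and a limma adjusted p of 0.00769. Gatm is the dimmest of the genes that fell: its probe was well above background on 3 of the 4 fasted arrays and on all satiated arrays, and the value of fasted heart 3 lay under the lowest level that counted as well above background on that array, -4.22. With another background correction (normexp) the change was -0.66, with a limma adjusted p of 0.0101. That alternative also takes median in place of processed signals and adds an offset of 50.

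Gamt, the methyltransferase that turns guanidinoacetate into creatine with S-adenosylmethionine as the donor, has 10 spots of its probe on each array, and these differed by an SD of 0.03 to 0.06 within an array. Its levels were -0.17, 0.20, -0.94 and -0.81 in fasted hearts 1 to 4, against 1.30, 1.42, 0.49 and 0.63 in satiated hearts 1 to 4. In both groups the hearts on slide 2 were lower than those on slide 1, by 0.84 on average, and within each slide as over both, all fasted hearts were below the satiated ones. The mean was -0.43 ± 0.54 in fasted and 0.96 ± 0.47 in satiated hearts (SD, n = 4 each), a log2 change of -1.39 ± 0.32 (SE) or 2.62-fold lower in fasted hearts, with a 95% interval from -2.12 to -0.67 and a limma adjusted p of 0.0183. The change was -1.35 on slide 1 and -1.44 on slide 2. Without satiated replicate 2 it was -1.24 with a limma adjusted p of 0.0524, which ends the call, whereas with slide as a block the adjusted p was 0.000397.

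The sequences upstream of the 2 synthesis genes are shown because both genes fell. RefSeq's table for build GRCm38.p6 gives 1 start for each, and the 250 bases before it, on the strand of the gene, were searched for 7 motifs on both strands: the TATA box (TATAAA), the binding site of NF-Y (CCAAT), the GC box (GGGCGG), the E-box (CANNTG), the core of hypoxia response elements (ACGTG), the forkhead site (GTAAACA) and the site of oestrogen-related receptors (TCAAGGTCA). The core of hypoxia response elements can lie within an E-box. Matches are in capitals, the last base is the one before the start, and positions name the leftmost base of a match, counted back from the start.
Gatm, chr2:122611278-122611527, minus strand: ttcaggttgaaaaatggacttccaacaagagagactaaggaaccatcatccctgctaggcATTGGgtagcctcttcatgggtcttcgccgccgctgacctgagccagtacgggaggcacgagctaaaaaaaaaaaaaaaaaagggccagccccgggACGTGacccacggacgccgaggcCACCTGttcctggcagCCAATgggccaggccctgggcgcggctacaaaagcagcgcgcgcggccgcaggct
Gamt, chr10:80261013-80261262, minus strand: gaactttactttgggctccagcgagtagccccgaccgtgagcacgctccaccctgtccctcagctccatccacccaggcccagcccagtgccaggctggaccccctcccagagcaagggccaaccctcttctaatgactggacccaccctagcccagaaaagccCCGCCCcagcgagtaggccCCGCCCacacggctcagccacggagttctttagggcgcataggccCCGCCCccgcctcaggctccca
The windows share no motif. In that of Gatm, CCAAT was found at -55 and, on the other strand, at -190, CANNTG at -71 and ACGTG at -94. The window of Gamt held GGGCGG 3 times, on the other strand, at -86, -67 and -22. Of 32851 windows of this length over all genes of the table, CCAAT was in 33.8%, GGGCGG in 32.7%, CANNTG in 66.2% and ACGTG in 16.6%.

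Of the cytosolic creatine kinases, Ckb fell in fasted hearts and Ckm did not pass the test. Ckb, the brain-type subunit that the heart also expresses, had levels of 2.40, 2.49, 2.24 and 2.24 in fasted hearts 1 to 4, against 3.39, 3.47, 3.08 and 3.16 in satiated hearts 1 to 4. The highest fasted heart was below the lowest satiated heart, and the spread within each group was small beside the gap. The mean was 2.34 ± 0.12 in fasted and 3.27 ± 0.18 in satiated hearts (SD, n = 4 each), a log2 change of -0.93 ± 0.13 (SE) or 1.91-fold lower in fasted hearts, with a 95% interval from -1.23 to -0.63 and a limma adjusted p of 0.00296. A second, dimmer probe of Ckb gave -0.88 ± 0.19 (SE), with an adjusted p of 0.0145 when each of the 26480 kept probes was tested on its own in limma, a fit that called 21.1% of them, 10.5% as lower. The change was -0.98 on slide 1 and -0.88 on slide 2, and the call held in each of the 8 fits that left out 1 heart.

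Ckm, the muscle-type subunit, which sits at the M-line and near the ion pumps, had levels of 4.23, 4.47, 5.51 and 5.07 in fasted hearts 1 to 4, against 4.98, 4.93, 5.99 and 5.58 in satiated hearts 1 to 4. The hearts on slide 2 were higher than those on slide 1, by 0.88 on average, so that the groups overlapped over both slides, while within each slide both fasted hearts were below both satiated ones. The mean was 4.82 ± 0.58 in fasted and 5.37 ± 0.51 in satiated hearts (SD, n = 4 each), a log2 change of -0.55 ± 0.34 (SE), with a 95% interval from -1.32 to 0.23 and a limma adjusted p of 0.302. With slide as a block the same change of -0.55 had an SE of 0.14 and a limma adjusted p of 0.0215. With the replicate block, which pairs same-numbered hearts, the limma adjusted p was 0.0136, though the labels do not give that pairing. In both fits Ckm passed as the sixth gene of the set. With slide as a block, leaving out 1 heart kept this call in 3 of 8 fits, those without fasted replicate 2, fasted replicate 3 or satiated replicate 4, and in the other 5 the limma adjusted p was 0.0503 to 0.0641. Among all genes and probes the fit with slide as a block called 35.5%, 18.4% as lower in fasted hearts. With arrays weighted by how closely they followed their group means, the change was -0.87, with a limma adjusted p of 0.0581. Neither the weights nor that fit took slide into account, and the change within a slide was smaller, -0.60 on slide 1 and -0.49 on slide 2.

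The windows before the starts of both cytosolic creatine kinase genes are set out in the same way, as 2 genes for subunits of 1 enzyme of which 1 passed the test.
Ckb, chr12:111672339-111672588, minus strand: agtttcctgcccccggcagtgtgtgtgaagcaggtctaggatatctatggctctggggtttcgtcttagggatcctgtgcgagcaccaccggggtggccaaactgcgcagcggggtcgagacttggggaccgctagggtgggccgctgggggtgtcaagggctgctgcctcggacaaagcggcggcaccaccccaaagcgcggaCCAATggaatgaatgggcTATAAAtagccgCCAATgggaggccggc
Ckm, chr7:19410844-19411093, plus strand: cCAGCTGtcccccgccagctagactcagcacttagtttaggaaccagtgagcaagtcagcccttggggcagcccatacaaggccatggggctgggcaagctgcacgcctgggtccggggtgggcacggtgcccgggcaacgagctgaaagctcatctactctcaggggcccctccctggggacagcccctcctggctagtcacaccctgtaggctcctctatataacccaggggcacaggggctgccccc
They have no motif in common. The Ckb window held TATAAA at -28 and CCAAT at -46 and -16, and TATAAA was in 12.4% of all windows. That of Ckm held CANNTG at -249. The other members had 12 further windows, 4 each for Ak1 and Ak4. GTAAACA, found in 3.17% of all windows, and TCAAGGTCA, found in 0.387%, were in none of the 16 windows of the 9 genes.

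Neither mitochondrial creatine kinase passed the test. Ckmt2, the sarcomeric isoenzyme that is bound to the inner membrane of heart and skeletal muscle mitochondria, had levels of 8.28, 8.39, 8.48 and 8.23 in fasted hearts 1 to 4, against 8.66, 8.45, 8.30 and 8.47 in satiated hearts 1 to 4. The groups overlapped. The mean was 8.34 ± 0.11 in fasted and 8.47 ± 0.14 in satiated hearts (SD, n = 4 each), a log2 change of -0.13 ± 0.12 (SE) with a 95% interval from -0.40 to 0.15 and a limma adjusted p of 0.516, an interval that leaves out a fall of the size seen for Ckb.

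Ckmt1, the ubiquitous isoenzyme, typical of brain and epithelia, was dim in these hearts, with levels of -3.34, -2.90, -2.79 and -3.08 in fasted hearts 1 to 4, against -3.39, -2.99, -3.18 and -2.92 in satiated hearts 1 to 4. Its probe was well above background on every array, and the groups overlapped. The mean was -3.03 ± 0.24 in fasted and -3.12 ± 0.21 in satiated hearts (SD, n = 4 each), a log2 change of 0.09 ± 0.17 (SE) with a 95% interval from -0.28 to 0.47 and a limma adjusted p of 0.748. Its sign turned to -0.06 when arrays were weighted in the way described for Ckm.

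Among the adenylate kinases, Ak1 and Ak4 fell in fasted hearts and Ak3 did not pass. Ak1, the cytosolic isoenzyme of muscle and brain, had levels of 4.83, 4.83, 4.76 and 4.96 in fasted hearts 1 to 4, against 5.67, 5.58, 5.73 and 5.69 in satiated hearts 1 to 4. Its hearts lay closest together of all 9 genes within the fasted group, and the groups were well apart. The mean was 4.84 ± 0.08 in fasted and 5.67 ± 0.06 in satiated hearts (SD, n = 4 each), a log2 change of -0.82 ± 0.10 (SE) or 1.77-fold lower in fasted hearts, with a 95% interval from -1.06 to -0.59 and a limma adjusted p of 0.00191. The change was -0.80 on slide 1 and -0.85 on slide 2.

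Ak4, a mitochondrial matrix protein of the adenylate kinase family, had levels of -2.29, -2.11, -3.06 and -2.03 in fasted hearts 1 to 4, against -0.78, -0.79, -0.74 and -0.71 in satiated hearts 1 to 4. The satiated hearts were nearly alike and the fasted ones were spread below them, with fasted heart 3 the lowest. The mean was -2.37 ± 0.47 in fasted and -0.75 ± 0.04 in satiated hearts (SD, n = 4 each), a log2 change of -1.62 ± 0.22 (SE) or 3.07-fold lower in fasted hearts, with a 95% interval from -2.13 to -1.11 and a limma adjusted p of 0.00264. The change was -1.41 on slide 1 and -1.82 on slide 2, it was -1.18 with normexp, and it was -1.39 or beyond in each of the 8 fits that left out 1 heart.

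Ak3, the matrix enzyme that transfers phosphate between GTP and AMP, had levels of 3.93, 4.03, 3.45 and 3.70 in fasted hearts 1 to 4, against 3.98, 3.97, 3.69 and 3.73 in satiated hearts 1 to 4. The groups overlapped on both slides, and fasted heart 3 was the lowest of all. The mean was 3.78 ± 0.26 in fasted and 3.84 ± 0.15 in satiated hearts (SD, n = 4 each), a log2 change of -0.06 ± 0.16 (SE) with a 95% interval from -0.42 to 0.30 and a limma adjusted p of 0.826.

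**Figure D2:**
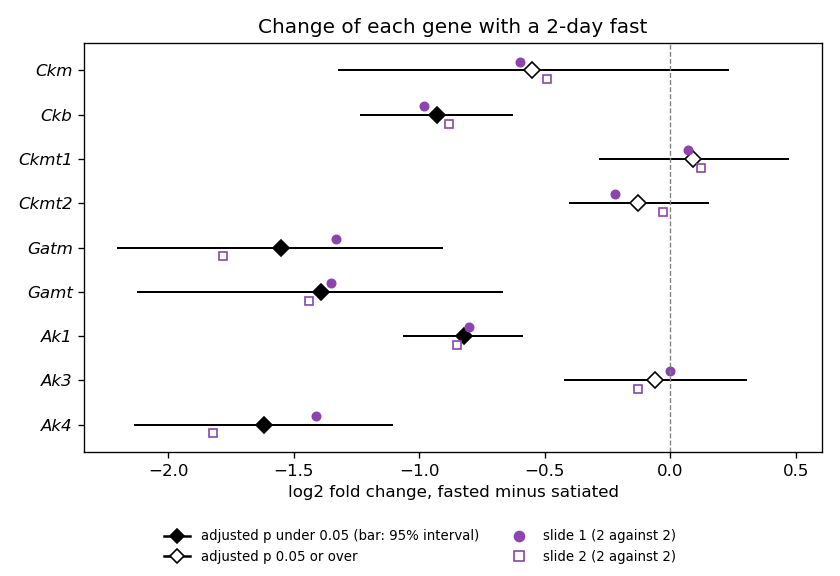
Log2 change, fasted minus satiated, of each of the 9 genes with its 95% interval, and the change within slide 1 and within slide 2 as separate points. The intervals of Ak4, Gatm, Gamt, Ckb and Ak1 lie wholly below 0, and that of Ckm, from -1.32 to 0.23, crosses it.

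Whether members changed by different amounts was tested within hearts, where the scaling of the array drops out, by exact permutation of the 8 hearts over 70 splits for 6 pairs (two-sided; the smallest possible p is 0.0286). The clearest gap was between the 2 matrix adenylate kinases. Ak4 minus Ak3 was -6.22, -6.14, -6.52 and -5.73 in fasted hearts 1 to 4, against -4.76, -4.76, -4.43 and -4.44 in satiated hearts 1 to 4. Ak4 thus changed by -1.55 more than Ak3, with no overlap between the groups and on both slides (-1.42 and -1.69). The exact p was 0.0286, the smallest possible, and 0.171 after Benjamini-Hochberg adjustment over the 6 pairs, which does not pass. When only 1 pair reaches the smallest p, it cannot pass this adjustment, however far apart its groups lie.

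In the 5 other pairs no difference passed this test, in which the spread between slides is part of the error. The change of Ckb differed from that of Ckm by -0.38 (exact p = 0.486), and that of Ak1 from that of Ckm by -0.28 (exact p = 0.486). For Ckmt2 against Ckm the difference was 0.42 (exact p = 0.343), and for Ckmt1 against Ckmt2 it was 0.22 (exact p = 0.314). Gamt and Gatm, the 2 synthesis steps, differed in change by 0.16 (exact p = 0.629), and here the sign turned, to -0.58 with normexp and to -0.02 on slide 1 alone. Taken by replicate number, fasted minus satiated, Ckb minus Ckm was -0.24, -0.52, -0.36 and -0.42, and Ckmt2 minus Ckm was 0.37, 0.39, 0.66 and 0.26. Each of these pairs thus kept 1 sign in all 4 numbers, and so did every other pair except Gamt and Gatm. When fasted and satiated were exchanged only within numbers, the exact p was 0.125 for those 5 pairs, the smallest that 16 splits allow. With exchange within slides, where 36 splits allow an exact p of 0.0556 at the least, Ckb against Ckm had 0.111, while Ckmt2 against Ckm and Ak4 against Ak3 had 0.0556. Neither blocked test can pass 0.05 in this design, so whether Ckb and Ckm changed by different amounts was not settled.

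Around the members, 6 lists of 48 genes of the same pathway were described, of which 46 had a probe and 42 were bright enough to test. In fasted hearts 4 rose, 5 fell and 33 did not pass, with a median change of -0.04, and 9 of 42 is close to the 20.2% called among all genes and probes. The calls stood mostly among the nucleoside diphosphate kinases, which pass phosphate from ATP to other nucleotides.

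Of the 7 nucleoside diphosphate kinase genes 4 fell and 1 rose, with a median change of -0.57. Nme1 had levels of -0.22, -0.22, -0.67 and 0.04 in fasted hearts 1 to 4, against 1.15, 1.12, 1.37 and 1.2 in satiated hearts 1 to 4. The groups lay well apart, for a change of -1.48 ± 0.16 (SE) with a limma adjusted p of 0.00117. Nme3 fell by 0.97 ± 0.19 (SE; limma adjusted p = 0.0102) and Nme6 by 0.71 ± 0.12 (SE; limma adjusted p = 0.00573). Nme7 changed by -0.57 ± 0.17 (SE; limma adjusted p = 0.0466), a call kept in 1 of the 8 fits that left out 1 heart and in 6 of 13 other alternatives, and with normexp its change was -0.28 (adjusted p = 0.185). Nme5, a family member known from sperm flagella and cilia, was higher in all fasted hearts, at -1.85, -1.51, -1.55 and -1.72, against -2.69, -3.03, -2.77 and -2.91 in satiated hearts, a rise of 1.2 ± 0.13 (SE; limma adjusted p = 0.00117). Nme2, the close copy of Nme1, changed by -0.03 ± 0.12 (SE; limma adjusted p = 0.883), and as the 2 genes are alike in sequence a probe of either may also bind the other.

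Of 4 genes of creatine uptake and methyl donor supply 2 rose, whereas both synthesis enzymes fell. Ahcy, which removes the S-adenosylhomocysteine left by methyltransferases such as Gamt, had levels of -1.75, -1.83, -0.68 and -1.15 in fasted hearts 1 to 4, against -2.86, -3.05, -2.65 and -2.86 in satiated hearts 1 to 4. Every fasted heart was higher, with a change of 1.5 ± 0.26 (SE; limma adjusted p = 0.00608). Slc6a8, the creatine transporter of the plasma membrane, had 5.0, 4.55, 4.90 and 5.04 in fasted hearts, against 4.46, 4.42, 4.40 and 4.40 in satiated hearts. This change of 0.45 ± 0.13 (SE) lay just past the threshold (limma adjusted p = 0.0477) and stayed so in 1 of the 8 fits that left out 1 heart. Mat2a, which makes S-adenosylmethionine, and Slc16a12, a creatine carrier, did not pass, at -0.41 ± 0.39 and -1.13 ± 0.42 (SE). With slide as a block Slc16a12 was called as lower in fasted hearts (limma adjusted p = 0.000651) and Slc6a8 as higher (adjusted p = 0.0252). The 2 carriers thus went in opposite directions.

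Among 4 genes for myofibril proteins that bind creatine kinase 1 fell. Fhl2, a LIM protein that tethers metabolic enzymes to titin, had levels of 7.02, 7.16, 7.40 and 7.14 in fasted hearts 1 to 4, against 8.21, 8.16, 8.19 and 8.23 in satiated hearts 1 to 4. It was lower by about the same amount in every fasted heart, with a change of -1.02 ± 0.12 (SE; limma adjusted p = 0.00123). The M-line genes Myom1, Myom2 and Myom3 did not pass, with changes of 0.26, 0.34 and 0.26.

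None of 6 other nucleoside monophosphate kinases and none of 9 carriers and outer membrane channels passed in limma, where 0 and 1 of them had an unadjusted p under 0.05. Among the carriers and channels the smallest p was that of Vdac3, an outer membrane channel, at -0.37 ± 0.11 (SE; limma adjusted p = 0.0538), while the ADP and ATP carriers Slc25a4 and Slc25a5 changed by 0.06 ± 0.11 and -0.12 ± 0.11 (SE). Of 12 genes of AMP and adenosine handling 1 rose: Nt5c2, a cytosolic nucleotidase, by 0.55 ± 0.13 (SE; limma adjusted p = 0.0214), although its other probe gave -0.10 and the call was kept in 5 of the 8 fits that left out 1 heart.

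**Figure D3:**
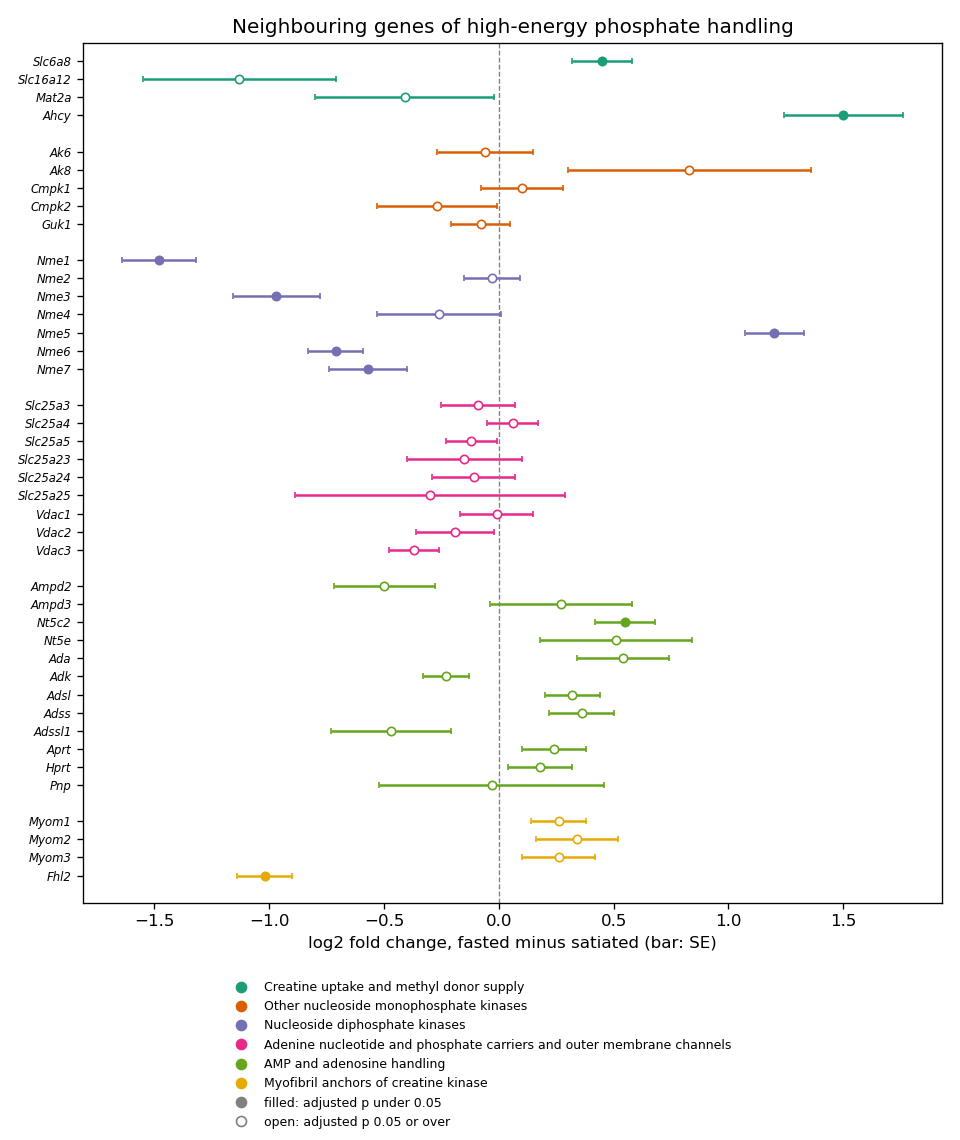
Log2 change, fasted minus satiated, of 41 of the 42 tested genes of the 6 neighbouring lists, grouped by list, with called genes marked. The nucleoside diphosphate kinases reach from -1.48 (Nme1) to 1.2 (Nme5), and no carrier or channel and no other nucleoside monophosphate kinase is marked.

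The genes most like the most clearly changed member of each family were sought among 13815 other named genes, by the root mean square difference of their levels over the 8 hearts after each gene was centred on its own mean. Nearest to Ckb were Gkn3 (difference 0.0594), Tnfaip8 (0.0704), named for its induction by tumour necrosis factor, and Hopx (0.0739), a homeodomain protein of cardiac muscle. Nearest to Ak1 were Pole4 (0.0527), a subunit of DNA polymerase epsilon, Mrps11 (0.0546), a protein of the mitochondrial ribosome, and Myadm (0.0604). All were lower in fasted hearts, as the measure requires, by changes of -0.92 for Gkn3, -0.89 for Tnfaip8, -0.83 for Hopx, -0.77 for Pole4, -0.80 for Mrps11 and -0.83 for Myadm.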

How the data were processed

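Total RNA of 8 hearts was measured on 1-colour Agilent arrays, and the labels give each sample a heart number of its own, read here as 1 mouse each. The intensities in the scanner files are linear and had been background-subtracted array by array, without scaling from array to array, per the file headers. Those headers name Agilent Feature Extraction 10.5.1.1 for slide 1 and 10.7.3.1 for slide 2, and the submitters' processing notes name version 9.1. A series-wide table of linear ratios, deposited by the authors, served as an alternative; its derivation is not given in the sources used.

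Control spots (1639 of 45018) and outlier spots were left out, log2 values were taken, spots of a probe averaged and the 75th percentile of each array subtracted. Kept were 26480 of 41174 probes, those well above background on at least 4 arrays. Probe accessions were matched to the RefSeq table of GRCm38.p6, used for names, which gave 26690 probes (64.8%) a symbol. The brightest kept probe stood for each gene. Promoter windows came from RefSeq on the same build, while the array was annotated on a different one. Probe sequences were not used here.

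Groups were compared over all 8 hearts with limma 3.58.1 (lmFit, eBayes; R 4.3.3), without covariates and with Benjamini-Hochberg adjustment over all 20203 genes and unnamed probes. The procedure was tested on simulated data with independent noise in each heart and no slide effect. That test therefore does not cover the slide differences of these arrays. Pairs of members were compared by exact permutation, also within replicate numbers and within slides, which was added after seeing the data. The alternatives were another scaling (median, quantile), background correction, probe filter and probe choice, slide as a block or alone, the replicate number as a block, array weights, the deposited ratios and leaving out each heart. The number of arrays limits the precision.

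Same-numbered hearts deviated together from their group means, with correlations over probes of 0.439, 0.475, 0.331 and 0.493 for numbers 1 to 4. Differently numbered hearts on the same slide did so as well, at 0.291 to 0.522, and those on different slides had -0.531 to -0.284. Such correlations thus follow the slide and do not show that the numbers pair the hearts. The labels do not say what the numbers stand for, so the replicate block is an alternative only.

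The members and the gene lists were chosen with earlier results of these data known. Named are all members, every called gene of the pathway lists and, in a list with none, the gene with the smallest p, and the 3 genes nearest in pattern to the most clearly changed member of each kinase family. Further list genes (Nme2, Mat2a, Slc16a12, Slc25a4, Slc25a5, the myomesins and those gained with slide as a block) were added after their values were seen. A gene named by this rule is not reported here.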

Additional observations from a re-analysis of the deposited data

Results flagged for a closer look

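Among 68 groups of 4 hearts tested for a heart that stands apart from the rest of its group (Dixon's rule at the 95% level), 4 did so, and chance alone gives about 1 in 20. The level of Tnfaip8 was 1.85 in fasted heart 4, against 2.08 to 2.13 in the other fasted hearts. The within-heart difference of Ckmt1 minus Ckmt2 was -11.62 in fasted heart 1, with -11.31 to -11.27 in the other fasted hearts, and -12.05 in satiated heart 1, with -11.49 to -11.40 in the other satiated hearts. That of Gamt minus Gatm was 3.41 in fasted heart 4, with 3.94 to 3.99 in the other fasted hearts. Such differences join 2 probes, so only their variation between hearts can be read.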

How the results depend on the processing

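Of 104 values of the 5 genes that fell (Gatm, Gamt, Ckb, Ak1 and Ak4) under the alternatives, all kept the direction and 97 the call. The 7 others were the 5 genes on slide 2 alone, with 2 hearts a group (Ckb -0.88, Gatm -1.78, Gamt -1.44, Ak1 -0.85 and Ak4 -1.82, adjusted p 0.0737 to 0.103), Gatm on slide 1 alone (-1.33, adjusted p 0.0779) and Gamt without satiated replicate 2 (-1.24). Gatm was not tested where a probe had to be well above background on all 8 arrays. Leaving out 1 heart gave -1.0 to -0.87 for Ckb, -1.73 to -1.34 for Gatm, -1.60 to -1.22 for Gamt, -0.86 to -0.80 for Ak1 and -1.73 to -1.39 for Ak4. Ckm was called with slide as a block (-0.55), as in that fit without fasted replicate 2 (-0.59), fasted replicate 3 (-0.65) or satiated replicate 4 (-0.64), with -0.65 to -0.47 over all hearts left out, an alternative chosen after seeing the data, and with the replicate block (-0.55, limma adjusted p = 0.0136). The replicate block changed no other call among the 9 genes. Genes that were not called turned sign in 4 cases: Ak3 had 0.00 on slide 1 alone, 0.05 with array weights and 0.04 without fasted replicate 3, with -0.15 to 0.04 over all hearts left out, and Ckmt1 had -0.06 with array weights. Permuting within numbers or slides changed no call of the 6 pairs. The difference in change of Gamt minus Gatm turned to -0.58 with normexp and to -0.02 on slide 1 alone.

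The count over all genes and probes was 4073, 2225 with no filter, 7177 with slide as a block, 6486 with the replicate block, 1883 on slide 1 alone, 1 on slide 2 alone, and 2495 (without satiated replicate 4) to 3690 without 1 heart (2520 without satiated replicate 2). Of the 9 genes 0 were called on slide 2 alone in limma, with an unadjusted p under 0.05 for 5. Of the 42 pathway genes 9 were called, 17 with slide as a block, 14 with the replicate block, 0 on slide 2 alone (11 at an unadjusted p under 0.05) and 6 to 9 without 1 heart. The cause of these shifts was not tested. No alternative moved the median change of all genes by more than 0.08. The planned normexp correction of mean signals was not run, and median signals were used in its place, a choice made after seeing the data. Dim probes, Gatm above all, are limited by the background of slide 2.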

Other observations

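With slide as a block 17 of the 42 pathway genes were called, 7 higher and 10 lower in fasted hearts, beside 35.5% of all genes and probes. AMP and adenosine handling had the most further calls, with 3 of its 12 genes higher and 3 lower. The 2 enzymes that return IMP to AMP, Adsl (0.32, limma adjusted p = 0.0202 in this fit) and Adss (0.36, adjusted p = 0.0406), were higher in fasted hearts. The muscle isoenzyme of Adss, Adssl1, was lower (-0.47, adjusted p = 0.017), as were the AMP deaminase Ampd2 (-0.50, adjusted p = 0.00961) and adenosine kinase Adk (-0.23, adjusted p = 0.0499). The limma adjusted p without the block was 0.109 for Adsl, 0.103 for Adss, 0.25 for Adssl1, 0.147 for Ampd2 and 0.149 for Adk. The creatine carrier Slc16a12 (-1.13), the channel Vdac3 (-0.37) and Myom2 (0.34) were called in the blocked fit as well, with adjusted p of 0.000651, 0.00882 and 0.0453, and not without the block. These genes were picked out after their values were seen.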
